A study of Mus musculus with 25 samples.

Results

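Two-pore domain potassium channel genes (Kcnk genes) were followed in the brain cortex of mice with an amyloid model, under 2 plant compounds given alone or together. The members were 7 genes selected by name, Kcnk1, Kcnk2, Kcnk3, Kcnk4, Kcnk9, Kcnk10 and Kcnk12, out of 21720 genes in the count table and out of 14 Kcnk genes in it. Kcnk4 was the starting point because its counts were lower with the combination than in the model control, so the values of that contrast chose it and are given below as a description. All 7 passed the filter on low counts.

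Cortex RNA came from 25 male mice, 6 months old, with 5 mice per group. Mice of strain B6C3 with the genotype APPswe, PSEN1dE9 received (-)-vestitol and salviolone at 2.5 mg/kg each (the combination), (-)-vestitol alone (5 mg/kg), salviolone alone (5 mg/kg), or vehicle (the model control). The wild type group, of strain C57BL/6J, also had vehicle. Injections were intraperitoneal and daily for 3 months. All treated mice and the model control carry the transgenes, so no group shows a compound in wild type cortex, and strain and genotype differ together between model control and wild type. In this model line the transgenes are driven by the mouse Prnp promoter. Each compound was given at a lower dose in the combination than alone.

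Two-pore domain channels are potassium channels that are open at rest and let potassium leak out of the cell. They set the resting membrane potential of neurons and glia and how readily a neuron fires. Members differ in what opens or closes them: the TREK and TRAAK channels (Kcnk2, Kcnk10, Kcnk4) respond to membrane stretch, temperature and fatty acids, the TASK channels (Kcnk3, Kcnk9) close in acid, and volatile anaesthetics act on several of them.

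Libraries held 59376320 to 109776852 counts, and the deepest was one of the combination. App, which the transgene adds to, stood at 3758 ± 264 CPM with the combination, 4071 ± 311 CPM with vestitol, 4605 ± 437 CPM with salviolone, 4262 ± 354 CPM in model control mice and 1672 ± 165 CPM in wild type mice (SD, n = 5 each), and each transgenic mouse was above each wild type mouse. None of the 8 cortex neuron markers was absent, and their summed level was 1322 to 1719 CPM with the combination, 1803 to 2063 CPM with vestitol, 1906 to 2152 CPM with salviolone, 1663 to 2131 CPM in model control mice and 1546 to 2016 CPM in wild type mice. Genes that mark hypothalamus and basal forebrain, regions outside the labelled cortex, separated the libraries more: the 13 markers summed to 454 to 738 CPM with the combination, 92.6 to 153 CPM with vestitol, 98.9 to 137 CPM with salviolone, 111 to 299 CPM in model control mice and 123 to 730 CPM in wild type mice. The results below are given beside that measure, since every combination library lay above every other transgenic library.

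On the length-normalised scale (FPKM, as deposited), the TASK gene Kcnk9 had the highest level of the family, with a mean of 52.1 FPKM over the 25 mice and a range of 45.7 to 65.7 FPKM. Kcnk1, a TWIK channel that gives only small currents in most cells, followed at 36.0 FPKM, and Kcnk2 at 25.2 FPKM. Kcnk3 averaged 9.39 FPKM, Kcnk12 4.93 FPKM, Kcnk4 4.08 FPKM and Kcnk10 3.79 FPKM. Kcnk9 was above Kcnk1 in 25 of 25 mice, Kcnk1 above Kcnk2 in 23, Kcnk2 above Kcnk3 in 25 and Kcnk3 above Kcnk12 in 25. At the lower end Kcnk12 was above Kcnk4 in 22 mice, and the order of Kcnk4 and Kcnk10 depended on the group. Kcnk4 was above Kcnk10 in 0 of 5 combination mice, 5 of 5 vestitol mice, 5 of 5 salviolone mice, 4 of 5 model control mice and 1 of 5 wild type mice. Of the other 7 Kcnk genes, Kcnk13, a gene of the halothane-inhibited type, averaged 4.96 FPKM, Kcnk5 0.570 FPKM and Kcnk6 0.491 FPKM, and the remaining 4 were below 0.1 FPKM. The 14 genes summed to 138 ± 5.58 FPKM with the combination, 140 ± 1.15 FPKM with vestitol, 142 ± 4.69 FPKM with salviolone, 145 ± 9.38 FPKM in the model control and 143 ± 1.16 FPKM in wild type (SD, n = 5 each). The summed level thus stayed within the spread between mice. Shares of the sum are a description and were not tested. Kcnk2 made up 22.6 ± 2.06% with the combination, 16.1 ± 1.61% with vestitol, 14.8 ± 1.71% with salviolone, 16.4 ± 1.46% in the model control and 19.1 ± 0.967% in wild type (SD). The mean share of Kcnk10 differed less, from 2.46% with salviolone to 2.99% in wild type.

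**Figure D1:**
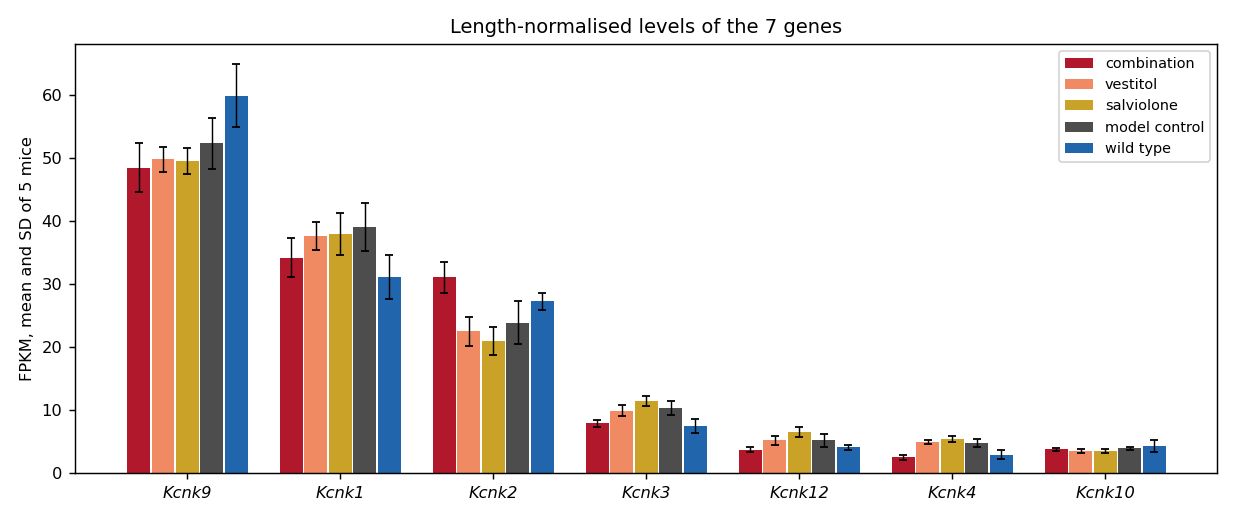
Length-normalised level (FPKM, vertical axis) of the 7 genes in each of the 5 groups; bars are means and error lines the SD of 5 mice. Kcnk9 stands highest and Kcnk12, Kcnk4 and Kcnk10 lowest in each group, and Kcnk2 is the gene with its highest bar in the combination.

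Kcnk4 encodes TRAAK, a channel opened by membrane stretch and by arachidonic acid, and found at the nodes of Ranvier of myelinated axons. The gene lies on chromosome 19 at 6903030 to 6911883 (mm39). In CPM (counts relative to the TMM-scaled library total), Kcnk4 stood at 8.73, 11.5, 12.8, 9.42 and 11.5 in the combination mice, against 16.9, 19.3, 24.5, 21.2 and 23.3 in the model control mice. The ranges did not overlap, as held for 12.6% of all tested genes, and the lowest model control value, in mouse 1, was above the highest combination value. The mean was 10.8 ± 1.67 CPM with the combination and 21.1 ± 3.05 CPM in the model control, a log2 fold change of -0.96 ± 0.14 (SE), and Kcnk4 ranked 20 of 16515 tested genes by p-value. Since this contrast chose the gene, no test is drawn from it. In bulk tissue, fewer cells of a type and less RNA per cell cannot be told apart.

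With each compound alone, Kcnk4 overlapped the model control and was not called. Vestitol mice had 22.0, 21.2, 24.3, 20.4 and 22.3 CPM, and salviolone mice had 22.0, 22.1, 26.8, 26.4 and 22.9 CPM. The log2 fold change against the model control was 0.07 with vestitol (95% interval -0.21 to 0.35, adjusted p = 0.958, edgeR quasi-likelihood test, Benjamini-Hochberg adjusted for all genes tested) and 0.19 with salviolone (-0.09 to 0.47, adjusted p = 0.622). The combination mice were below every mouse given 1 compound, with a log2 fold change of -1.03 ± 0.14 against vestitol and -1.15 ± 0.14 against salviolone; these use the same combination mice that chose the gene and are a description.

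Wild type cortex was low in Kcnk4 as well, at 13.3, 17.6, 9.21, 10.1 and 12.7 CPM. The model control was 0.74 ± 0.14 higher on the log2 scale (adjusted p = 0.00161, edgeR quasi-likelihood test), although the ranges met: model control mouse 1, at 16.9 CPM, was below wild type mouse 2, at 17.6 CPM. The model control mice of this comparison are those that chose Kcnk4 against the combination, so the test is not independent of the choice. The vestitol and salviolone mice were not used in it, and all 10 of them were above all 5 wild type mice. How many of all genes separate in that way was not computed. These mice also differ from wild type in strain and genotype. Their hypothalamus markers summed to 92.6 to 153 CPM with vestitol and 98.9 to 137 CPM with salviolone, against 123 to 730 CPM in wild type.

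The 250 bases before the annotated start are shown for Kcnk4 and Kcnk12, because the counts of both were lower with the combination than with either compound and both have 1 start in the RefSeq promoter table (GRCm38.p6). The windows are chr19:6934516-6934765, minus strand, for Kcnk4 and chr17:87797995-87798244, minus strand, for Kcnk12, read 5′ to 3′, with the GC box (GGGCGG or its reverse CCGCCC) in capitals.
Kcnk4: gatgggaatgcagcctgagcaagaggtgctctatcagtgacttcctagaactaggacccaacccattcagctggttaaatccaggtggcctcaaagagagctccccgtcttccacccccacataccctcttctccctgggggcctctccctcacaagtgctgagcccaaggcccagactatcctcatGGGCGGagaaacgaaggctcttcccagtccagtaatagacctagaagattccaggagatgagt
Kcnk12: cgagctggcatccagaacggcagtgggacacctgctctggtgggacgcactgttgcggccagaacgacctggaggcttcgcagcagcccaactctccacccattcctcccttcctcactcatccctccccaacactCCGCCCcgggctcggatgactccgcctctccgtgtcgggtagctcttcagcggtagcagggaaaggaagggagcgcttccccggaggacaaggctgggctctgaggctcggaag
Each window held 1 GC box, which 32.7% of the 32851 promoters in the table also held. Neither held a cAMP response element (TGACGTCA, in 1.55% of promoters), an E-box (CACGTG, in 6.02%) or a TATA box (TATAAA or TTTATA, in 12.4%). The GC content was 54.8% for Kcnk4 and 64.8% for Kcnk12, beside a median of 52.4% over all promoters, and the windows had 3 and 16 CpG sites. A match here is a description of letters in a window, not a site of binding.

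**Figure D2:**
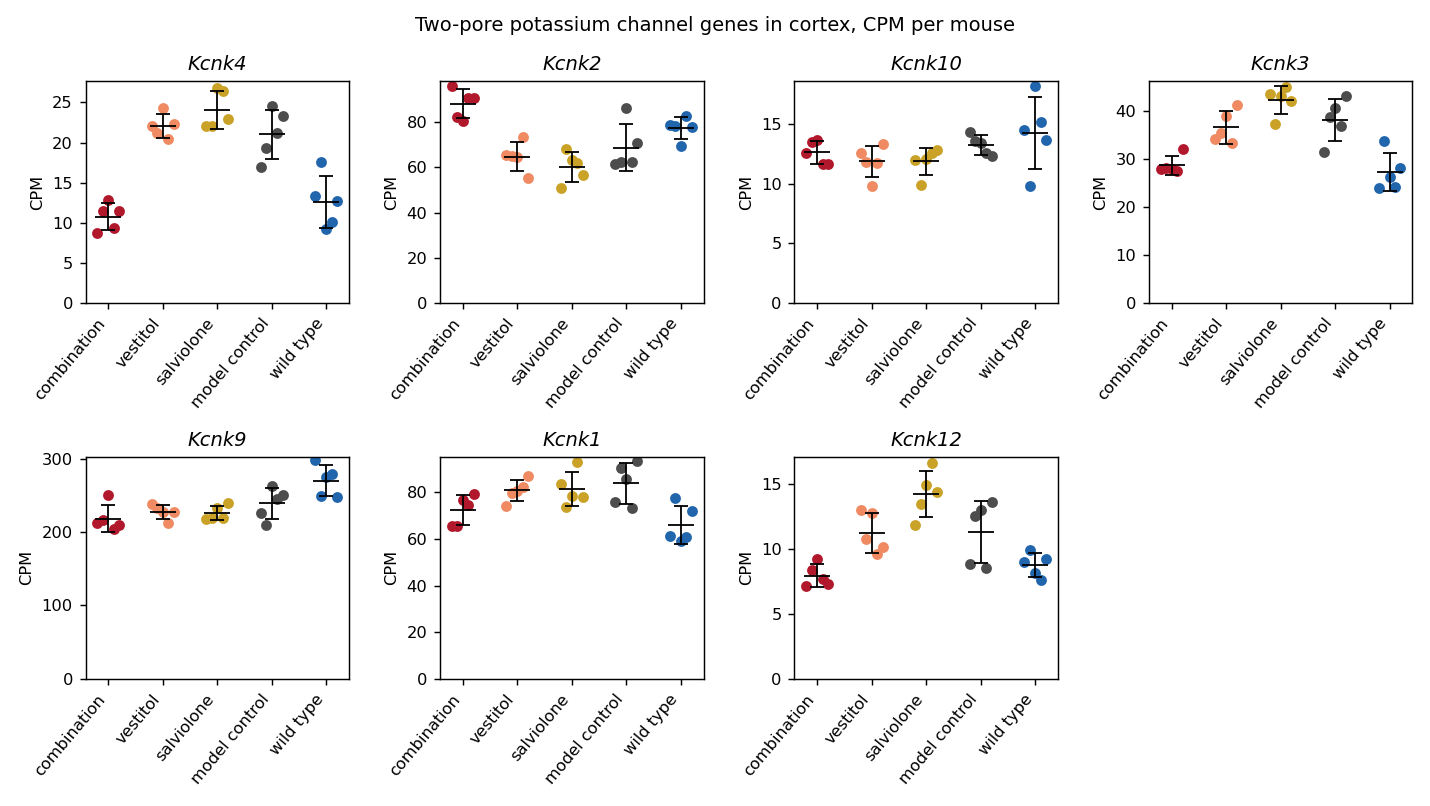
CPM (vertical axis) of each gene in each mouse; points are mice, black lines the mean and SD of 5 mice, and groups run from the combination to wild type. For Kcnk4 the combination mice (8.73 to 12.8 CPM) and the wild type mice (9.21 to 17.6 CPM) sit below all mice given 1 compound, and for Kcnk2 the combination mice are highest on average (88.1 CPM).

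Kcnk2 encodes a TREK channel, opened by stretch, warmth and polyunsaturated fatty acids and closed by receptor signals through cAMP and Gq, and moved opposite to its relative Kcnk4. It lies on chromosome 1 at 188940127 to 189134415 (mm39). The combination mice had 95.9, 82.5, 80.6, 90.7 and 90.7 CPM, against 65.5, 65.0, 64.4, 73.5 and 55.3 CPM in the vestitol mice. Salviolone mice had 51.1, 68.2, 63.2, 62.0 and 56.7 CPM, and every combination mouse was above every mouse given 1 compound. Kcnk2 rose by 0.44 ± 0.09 on the log2 scale against vestitol (adjusted p = 0.00074) and by 0.55 ± 0.09 against salviolone (adjusted p = 0.000108, both edgeR quasi-likelihood tests). With the hypothalamus marker score described below as a covariate, these were 0.60 (adjusted p = 0.11) and 0.68 (adjusted p = 0.0285).

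The model control mice had 61.6, 62.6, 86.3, 62.6 and 70.8 CPM of Kcnk2, and the wild type mice 79.0, 78.5, 69.5, 82.8 and 77.7 CPM. Model control mouse 3, at 86.3 CPM, lay above all wild type mice and inside the combination range, while the other 4 were at or below 70.8 CPM. The model control averaged 68.8 ± 10.5 CPM and wild type 77.5 ± 4.89 CPM, a log2 fold change of -0.17 ± 0.09 that did not pass (adjusted p = 0.223); without mouse 3 it was -0.27 (adjusted p = 0.0337, edgeR quasi-likelihood tests). Against the model control, the combination was 0.36 ± 0.09 higher, in the contrast that chose Kcnk4. The ratio of Kcnk2 to Kcnk4 in FPKM was 9.74 to 17.0 in the combination mice, 3.85 to 5.56 with vestitol, 3.59 to 4.78 with salviolone, 4.56 to 5.63 in the model control and 6.90 to 12.7 in wild type. On this ratio the combination and wild type mice overlapped, and both lay above all mice of the other 3 groups. It contains the Kcnk4 values that chose the gene and is a description.

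Kcnk10, the third channel of the stretch-gated branch, on chromosome 12 at 98395696 to 98544569 (mm39), did not pass in any comparison. Its means ran from 11.8 CPM with salviolone to 14.2 CPM in wild type, and its log2 fold changes in the tested comparisons lay between -0.16 and 0.09. For the combination against vestitol the interval was -0.15 to 0.33, and against salviolone -0.15 to 0.33. Wild type mice were spread more widely than any other group in this gene, from 9.77 to 18.1 CPM.

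Kcnk3 encodes a TASK channel, a background channel that closes in mild acid, and is on chromosome 5 at 30745514 to 30782615 (mm39). It was 27.8, 28.0, 27.8, 27.5 and 32.0 CPM in the combination mice, against 34.1, 35.3, 38.9, 33.2 and 41.1 CPM with vestitol. Salviolone mice had 43.5, 37.2, 43.0, 44.9 and 42.0 CPM, and all combination mice were below all mice given 1 compound. Kcnk3 fell by 0.35 ± 0.09 on the log2 scale against vestitol (adjusted p = 0.00594) and by 0.56 ± 0.09 against salviolone (adjusted p = 0.000107, edgeR quasi-likelihood tests). Both calls were lost with the hypothalamus score as a covariate, at -0.11 (adjusted p = 0.843) against vestitol and -0.36 (adjusted p = 0.27) against salviolone.

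In the model control Kcnk3 had 31.5, 38.7, 40.6, 36.7 and 43.0 CPM, and in wild type 24.0, 33.6, 26.2, 24.1 and 28.0 CPM. It rose by 0.49 ± 0.09 in the model control relative to wild type (adjusted p = 0.00164, edgeR quasi-likelihood test). As with Kcnk4, the ranges met in model control mouse 1 (31.5 CPM) and wild type mouse 2 (33.6 CPM). The combination was 0.41 ± 0.09 lower than the model control in the contrast that chose Kcnk4.

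Kcnk9, the other TASK gene, on chromosome 15 at 72372938 to 72418189 (mm39), did not follow Kcnk3. Its level was 203 to 250 CPM with the combination, 212 to 238 CPM with vestitol, 218 to 240 CPM with salviolone, 210 to 262 CPM in model control mice and 248 to 298 CPM in wild type mice. The groups overlapped, apart from vestitol and salviolone, which lay below all wild type mice. The share of all genes that separate in that way was not computed. The model control was 0.18 ± 0.06 lower than wild type and missed the threshold (adjusted p = 0.0688), while limma on the deposited FPKM called it (adjusted p = 0.0332 to 0.0436). The combination differed from vestitol by -0.06 (interval -0.19 to 0.07) and from salviolone by -0.05 (interval -0.18 to 0.08, edgeR quasi-likelihood tests).

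Kcnk1, the TWIK gene, on chromosome 8 at 126721909 to 126757424 (mm39), differed between model control and wild type, which differ in strain and genotype together. Its level was 76.1, 90.5, 85.8, 73.5 and 93.5 CPM in the model control, against 61.3, 77.4, 59.2, 60.8 and 71.8 CPM in wild type. Kcnk1 rose by 0.34 ± 0.08 in the model control relative to wild type (adjusted p = 0.00803, edgeR quasi-likelihood test), with ranges that overlap in model control mice 1 and 4 and wild type mouse 2. The call was lost when only these groups were fitted (adjusted p = 0.0697). It was also lost with the hypothalamus score as a covariate, at 0.29 (adjusted p = 0.124, edgeR quasi-likelihood tests). Combination mice had 65.5 to 79.2 CPM, vestitol mice 74.3 to 87.2 CPM and salviolone mice 73.8 to 92.9 CPM. The combination differed by -0.16 from vestitol (interval -0.33 to 0.0085) and by -0.17 from salviolone (interval -0.34 to 0.00024), and neither passed.

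Kcnk12 encodes a subunit of the halothane-inhibited type that gives little current when expressed alone, and is on chromosome 17 at 88053229 to 88105422 (mm39). It was 7.15, 8.40, 9.21, 7.71 and 7.31 CPM in the combination mice, against 13.0, 10.7, 12.8, 9.62 and 10.1 CPM with vestitol. With salviolone it was 11.9, 13.5, 14.9, 16.6 and 14.4 CPM, so the combination was below both compounds with no overlap. Kcnk12 fell by 0.50 ± 0.13 on the log2 scale against vestitol (adjusted p = 0.00671) and by 0.84 ± 0.13 against salviolone (adjusted p = 7.58e-05, edgeR quasi-likelihood tests). With the hypothalamus score these calls too were lost, at -0.15 (adjusted p = 0.859) against vestitol and -0.56 (adjusted p = 0.249) against salviolone. Without the 3 deepest combination libraries, the call against vestitol was lost at -0.53 (adjusted p = 0.0617, edgeR quasi-likelihood test). That fit was chosen after seeing the data and holds fewer mice.

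The model control mice had 8.85, 12.6, 13.0, 8.56 and 13.6 CPM of Kcnk12 and fell into a low pair, mice 1 and 4, and a high group of 3. Wild type mice had 8.99, 9.91, 8.15, 7.63 and 9.24 CPM. The model control was 0.37 ± 0.13 higher on the log2 scale and missed the threshold (adjusted p = 0.0671, edgeR quasi-likelihood test). The combination was 0.51 ± 0.13 lower than the model control in the contrast that chose Kcnk4.

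Counted over the 7 members, 3 were called higher and 0 lower in the model control than in wild type, namely Kcnk4, Kcnk3 and Kcnk1. Of all tested genes, 11.6% were called there, 5.37% higher and 6.21% lower. The 6 tested Kcnk genes outside the members gave 0 calls in this comparison. For the combination they gave 0 calls against salviolone and 1 against vestitol (Kcnk6, lower). The background itself depended on the fit and on single mice. With only the model control and wild type mice in the fit, 349 of 15861 genes (2.2%) were called, in place of 1913. With all groups fitted, leaving out wild type mouse 4 gave 954, model control mouse 2 gave 1194 and wild type mouse 2 gave 2928. Without Kcnk4, 2 of the 6 remaining members were called in the model control against wild type. Against vestitol, 3 of the 6 members other than Kcnk4 were called with the combination, Kcnk2 higher and Kcnk3 and Kcnk12 lower. Of all genes, 21.9% were called there. Against salviolone, the same 3 genes were called in the same directions, where 17.9% of all genes were called. Both comparisons share the combination mice. Against the mean of both compounds, they were again the 3 called of 6, where 24.1% of genes were called, at log2 fold changes of 0.50 for Kcnk2, -0.45 for Kcnk3 and -0.67 for Kcnk12. Their ranges did not overlap with either compound, as held for 18.1% of all genes against vestitol and 15.8% against salviolone. For the combination against the model control, 15% of all genes were called, and 4 of the 7 genes, Kcnk4 included, were at an adjusted p under 0.05; that contrast chose Kcnk4, and nothing is read from its count.

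**Figure D3:**
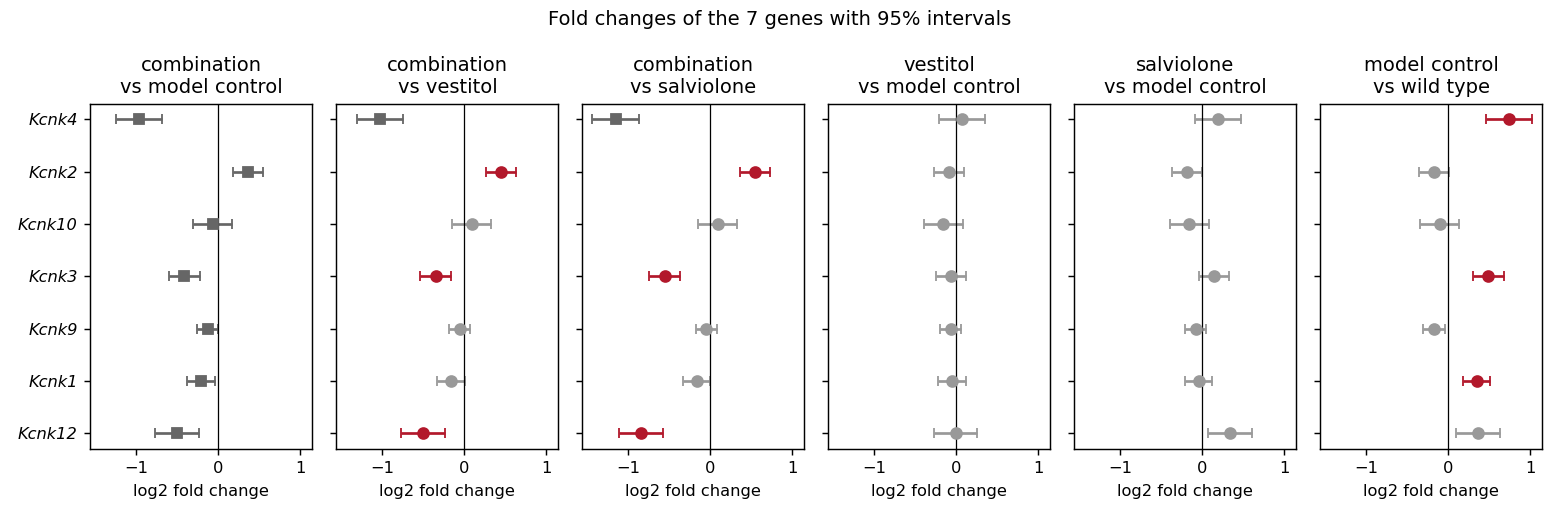
Log2 fold change (horizontal axis) of the 7 genes in 6 comparisons, with 95% intervals. Red circles passed the adjusted p and light circles did not. Dark squares are a description: all genes for the combination against the model control, which chose Kcnk4, and Kcnk4 for the combination against each compound. The circles for the combination against each compound come from the same combination mice. Kcnk4 is red for the model control against wild type, a test not independent of its choice. Kcnk2 lies right of 0 and Kcnk3 and Kcnk12 left of it where the combination is compared with each compound, and no gene is red where a single compound is compared with the model control.

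No Kcnk gene was called with a single compound. With vestitol, 0 of 7 genes and 0% of all genes were called against the model control; at an unadjusted p under 0.05 there were 1249 genes, 0 of them among the 7, and at most 44 genes were called under any other fit run, or 2 with a mouse left out. With salviolone, 0 of 7 genes and 0.0242% of all genes (4 genes) were called, with 0 to 30 genes when a mouse was left out and 0 to 116 under the other fits; 2 of the 7 were at an unadjusted p under 0.05, Kcnk12 at 0.33 ± 0.13 higher (adjusted p = 0.316) and Kcnk2 at 0.19 ± 0.09 lower (adjusted p = 0.412, edgeR quasi-likelihood tests).

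Vestitol and salviolone were given at the same dose, 5 mg/kg, and 0 of 7 genes were called between them, where 0.684% of all genes were called. The widest difference was in Kcnk12, with vestitol lower by a log2 fold change of -0.34 (interval -0.61 to -0.08, adjusted p = 0.268). Kcnk3 differed by -0.21 (interval -0.39 to -0.02, adjusted p = 0.351) and Kcnk4 by -0.12 (interval -0.40 to 0.16, adjusted p = 0.801, edgeR quasi-likelihood tests). These intervals do not show that the compounds act alike on the family.

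Kcnk4, Kcnk3 and Kcnk12 moved together across mice. Over the 25 mice, log2 CPM of Kcnk4 correlated with that of Kcnk3 at r = 0.894 (rho = 0.894) and of Kcnk12 at r = 0.868 (rho = 0.921), and with that of Kcnk1 at r = 0.735. Once the group means, which hold the difference that chose Kcnk4, were taken out, these were 0.652 for Kcnk3, 0.635 for Kcnk12 and 0.578 for Kcnk1. Kcnk4 ran against Kcnk2 at r = -0.701 across all mice, but at 0.177 within groups. With Kcnk9 it stood at -0.109 across all mice and 0.225 within groups, and with Kcnk10 at -0.443 and -0.531. Among 12958 genes, those most like Kcnk4 included Adra1d, an alpha-adrenergic receptor, with r = 0.974 and rho = 0.919, and Kcns1, a silent potassium channel subunit, with r = 0.970 and rho = 0.898. Within groups these were 0.880 for Adra1d and 0.862 for Kcns1. The points share libraries and group differences, so the coefficients are a description. Kcns1, for example, was 17.7 ± 2.71 CPM with the combination, 36.8 ± 3.84 CPM with vestitol, 39.4 ± 2.95 CPM with salviolone, 34.1 ± 5.01 CPM in model control mice and 18.2 ± 6.04 CPM in wild type mice (SD, n = 5 each).

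Markers of tissue outside the cortex, and of other cell types, moved with these values. Of 13 hypothalamus and basal forebrain markers, 11 were called higher with the combination than with vestitol, 9 than with salviolone and 8 than in the model control, and 5 were called lower in the model control than in wild type. Of 6 striatum markers, 5 were called higher with the combination than in the model control, and their sum was 913 to 1432 CPM with the combination and 607 to 853 CPM in the model control. Of 8 cortex neuron markers, 4 were called lower and 1 higher with the combination than in the model control, and 4 higher and 1 lower in the model control than in wild type. With the combination, 6 of these markers were called lower and 0 higher against vestitol, and 7 lower and 1 higher against salviolone. Hippocampus markers (5 genes) summed to 247 to 319 CPM with the combination, 138 to 183 CPM with vestitol, 136 to 148 CPM with salviolone, 134 to 214 CPM in model control mice and 161 to 322 CPM in wild type mice, and 3 of them were called lower in the model control than in wild type. Oligodendrocyte precursor markers (3 genes) summed to 182 to 211 CPM with the combination, 132 to 151 CPM with vestitol, 134 to 158 CPM with salviolone, 135 to 168 CPM in model control mice and 133 to 231 CPM in wild type mice. The part of these 2 lists in the Kcnk values was not tested. A score, the mean log2 CPM of the 13 hypothalamus markers, was 1.76 to 3.91 in the combination mice, -1.21 to -0.07 with vestitol, -0.23 to 0.58 with salviolone, -0.47 to 1.62 in the model control and -0.84 to 3.12 in wild type. Model control mouse 1 had its group's highest score and lowest Kcnk4 (16.9 CPM), and wild type mouse 2 its group's lowest score and highest Kcnk4 (17.6 CPM). In the combination, mouse 1 had both the lowest score (1.76) and the lowest Kcnk4 (8.73 CPM).

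**Figure D4:**
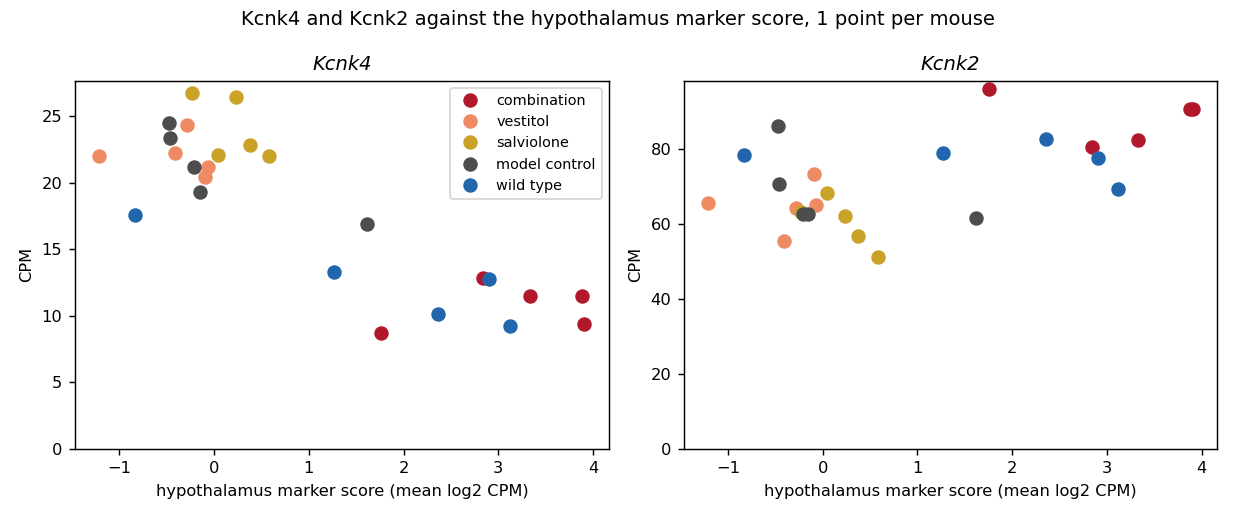
CPM of Kcnk4 and Kcnk2 (vertical axes) against the hypothalamus marker score (horizontal axis, mean log2 CPM of 13 markers), with 1 point per mouse and colours for the groups. Mice with a score above 1 have between 8.73 and 16.9 CPM of Kcnk4, and the combination and wild type mice fill the right side of both panels, with model control mouse 1 among them and wild type mouse 2 on the left.

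With the score as a covariate, Kcnk4 in the model control relative to wild type was 0.51 (adjusted p = 0.0633), Kcnk3 0.38 (adjusted p = 0.0645) and Kcnk1 0.29 (adjusted p = 0.124), so 0 of 7 genes were called (edgeR quasi-likelihood tests), and 118 of all tested genes in place of 1913. For the combination, 0 of 7 genes were called against vestitol, and 17 of all genes in place of 3609. Against salviolone 1 of 7 was called, Kcnk2, and 50 of all genes in place of 2954. The loss of calls was thus found over all genes and not in this family alone. With the score the fold change of Kcnk2 was larger and those of Kcnk3 and Kcnk12 were smaller than without it. The values of Kcnk4, a description here, were also smaller. They were -0.49 against the model control in place of -0.96, -0.50 against vestitol in place of -1.03, and -0.71 against salviolone in place of -1.15. Since every combination score exceeded that of every other transgenic mouse, treatment and score cannot be told apart between those groups.

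Of 20 genes for proteins known to bind, traffic or regulate these channels, 0 were called higher and 1 lower in the model control than in wild type, namely Map2, a microtubule protein of dendrites, at -0.30 ± 0.07 (adjusted p = 0.00574, edgeR quasi-likelihood test). The median of the 20 was 0.02. With the combination, 2 rose and 3 fell against vestitol, where 21.9% of all genes were called, and 5 rose and 3 fell against salviolone, where 17.9% were called; the first count is near the background. Pld2, a phospholipase D enzyme that activates TREK channels, rose by 0.46 ± 0.08 against vestitol (adjusted p = 0.000146) and by 0.40 ± 0.08 against salviolone (adjusted p = 0.000526). Sort1, sortilin, which is linked to TREK channel trafficking, fell by 0.19 ± 0.05 against vestitol (adjusted p = 0.00939) and by 0.26 ± 0.05 against salviolone (adjusted p = 0.000584). Akap5, a kinase anchoring protein, rose by 0.44 ± 0.15 against vestitol (adjusted p = 0.0334, all edgeR quasi-likelihood tests).

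Of 23 other genes that set the resting potential (inward rectifiers, sodium leak, HCN channels and the sodium pump), 3 rose and 3 fell in the model control relative to wild type, where 11.6% of all genes were called, with a median of 0.02. Kcnj10, the inward rectifier of astrocytes, rose by 0.51 ± 0.11 (adjusted p = 0.0046, edgeR quasi-likelihood test). Kcnj4, an inward rectifier of forebrain neurons, fell by 0.31 ± 0.06 (adjusted p = 0.00363) and Nalcn, the sodium leak channel, by 0.22 ± 0.07 (adjusted p = 0.0397, edgeR quasi-likelihood tests). With the combination, 5 rose and 6 fell against vestitol, with a median of -0.01, and 6 rose and 7 fell against salviolone, with a median of -0.02, where 21.9% and 17.9% of all genes were called.

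Nalf2, a subunit of the sodium leak channel, rose with the combination by 0.59 ± 0.10 against vestitol (adjusted p = 0.000189) and by 0.57 ± 0.10 against salviolone (adjusted p = 0.000269). Hcn3 rose by 0.61 ± 0.11 against vestitol (adjusted p = 0.00021). Kcnj9, a G protein-gated inward rectifier, fell by 0.48 ± 0.08 against vestitol (adjusted p = 0.000195) and by 0.59 ± 0.08 against salviolone (adjusted p = 2.87e-05, all edgeR quasi-likelihood tests). Neither list was called in any gene with a single compound against the model control. The hypothalamus and striatum markers differed in the same comparisons, and their part in these values was not tested gene by gene.

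Of 10 tested neighbours of Kcnk4, 5 on each side by RefSeq order, 1 was called in the model control relative to wild type (Esrra, higher), and 4 were higher (Trmt112, Plcb3, Ppp1r14b and Fkbp2) and 1 lower (Catsperz) with the combination than with vestitol. These 5 of 10 stand beside 21.9% of all genes called. Against salviolone 1 was called, Fkbp2, higher. Catsperz, 281 bases from Kcnk4 on the same strand, stood at 2.30 ± 0.651 CPM with the combination, 4.56 ± 0.997 CPM with vestitol, 3.76 ± 0.524 CPM with salviolone, 4.68 ± 1.66 CPM in model control mice and 2.67 ± 1.34 CPM in wild type mice (SD, n = 5 each), 15.7 to 21.9% of the Kcnk4 level on average per group. RefSeq lists Catsperz also as a synonym of Kcnk4, so how the counting divided reads between these genes is uncertain. None of the 7 genes overlaps another gene of the table.

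Of the other 7 Kcnk genes, 6 were tested, and 1 was called once: Kcnk6, a TWIK-related gene, at 5.87 ± 0.762 CPM with the combination and 7.83 ± 1.13 CPM with vestitol (SD, n = 5 each), a log2 fold change of -0.41 ± 0.13 (adjusted p = 0.0293, edgeR quasi-likelihood test), with overlapping ranges. Kcnk16 did not pass the filter on low counts.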

How the data were processed

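Cortex RNA of 25 mice was sequenced. Adapter trimming with Trim Galore and alignment with STAR to mm39 are named in the submitters' processing notes; the sources used here give neither their versions nor the counting tool. Raw counts per gene and FPKM were deposited by the authors for these mice. Multiples of 4 made up 44.3% of count values between 4 and 39 (chance 25%), for which no reason is given. Members, lists and tests were chosen with earlier results of these data known. The 7 genes were always named; listed genes were named if called, at most 4 per comparison and direction, smallest adjusted p first; a few of these are not reported here.

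Genes were filtered with edgeR's filterByExpr (minimum count 10), which left 16515. All 25 mice entered 1 fit with a coefficient per group (edgeR 4.0.16, R 4.3.3, TMM factors 0.98 to 1.04), and the two-sided robust quasi-likelihood test, with Benjamini-Hochberg adjustment and calls under 0.05. The procedure was tested on simulated counts. Their spread between mice (dispersion) was set lower than the common dispersion of these data, 0.0483, and without differences in tissue make-up. That test therefore cannot show the rate of false calls in these data. CPM use TMM-scaled library sizes, and fold changes are log2 with the SE taken from F. Total counts of 59376320 to 109776852 put 3 counts, the limit of a count of 0, at 0.0273 to 0.0505 CPM, for counting error only. That libraries are separate mice follows the design text. Alternatives are listed in the closing section.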

Additional observations from a re-analysis of the deposited data

Results flagged for a closer look

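Among the 35 sets of 5 mice (7 genes in 5 groups), 2 held a mouse far from the others, where chance would flag about 1 in 20. Kcnk3 stood at 32.0 CPM in combination mouse 5, while the next highest combination mouse had 28.0 CPM, and the gap was 0.897 of the group's range. Kcnk9 stood at 250 CPM in combination mouse 3, with the next at 217 CPM and a gap of 0.713 of the range. The critical value is 0.71. Combination mouse 5 was still below all mice given vestitol or salviolone in Kcnk3.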

How the results depend on the processing

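Counts of called genes include Kcnk4 here. With the hypothalamus score as a covariate, the called genes of the 7 numbered 0 for the model control against wild type, 0 for the combination against the model control, 0 against vestitol, 1 against salviolone and 0 against the mean of both. Without its 3 deepest libraries, an alternative chosen after seeing the data like the choroid plexus score, 2 were called for the combination against the model control; fewer samples enter that fit. Leaving out 1 mouse at a time gave 3 to 5 called genes for the model control against wild type, with 5 without model control mouse 3 or wild type mouse 2, while all genes called ran from 954 to 2928. It gave 4 to 5 for the combination against the model control and 4 against vestitol, salviolone and their mean. All genes called ran from 1812 to 2588, 2863 to 3429, 2327 to 2856 and 3228 to 3906 in these comparisons, in that order. The counts for the combination reuse the mice that chose Kcnk4, and nothing is read from them. Vestitol or salviolone against the model control, and vestitol against salviolone, gave 0 in all fits run.

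Fitted with only the groups compared, Kcnk1 in the model control relative to wild type was 0.34 and lost its call (adjusted p = 0.0697, edgeR). Kcnk12 there was called with DESeq2 (adjusted p = 0.0492) and with the choroid plexus score (adjusted p = 0.0137, edgeR). It was also called without model control mouse 1 (adjusted p = 0.0251), model control mouse 4 (0.0308) or wild type mouse 2 (0.0383, edgeR). In 7 of 10 fits with a mouse left out, Kcnk12 stayed uncalled. Kcnk9 was called in the 3 limma fits of FPKM and without model control mouse 3, wild type mouse 2 or wild type mouse 5 (adjusted p = 0.0323 to 0.0494). Of 1295 fold changes of the 7 genes under alternatives, 1227 kept their direction and call, 22 lost and 16 gained a call and 30 changed sign, none of the last called. Signs changed for Kcnk12 with vestitol against the model control at 0.0072 (log2 of FPKM plus 0.1, with or without the filter) and 0.0042 (plus 1), and for Kcnk10 with vestitol against salviolone at -0.0033 and -0.0025. With the hypothalamus score, Kcnk10 was 0.081 for the model control against wild type, and -0.27, -0.20 and -0.24 for the combination against vestitol, salviolone and their mean; Kcnk9 was 0.0010 in these 3. With the choroid plexus score, Kcnk4 with vestitol against the model control was -0.065. Over single mice left out, vestitol against the model control gave -0.0017 to 0.13 for Kcnk4, -0.094 to 0.065 for Kcnk12 and -0.14 to 0.0058 for Kcnk2. Vestitol against salviolone gave -0.040 to 0.044 for Kcnk1, -0.0044 to 0.035 for Kcnk9 and -0.057 to 0.065 for Kcnk10. The cause was not tested.

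Replicate numbers did not pair the mice: in 10 pairs of groups, correlations of same-numbered mice ran from -0.0921 to 0.091. With the replicate block, 3 genes were called for the model control against wild type, 4 in each combination comparison and 0 in the others, as without it. Of all genes, 11.5% were called there for the model control against wild type. For the combination, 14.9% were called against the model control, 21.7% against vestitol, 18% against salviolone and 24.1% against their mean. Kcnk12 with vestitol against the model control changed sign in the block fit, at 0.0040.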
